A study of Mus musculus with 143 samples.

Results

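Markers commonly used to tell resting, or homeostatic, microglia from other macrophages were followed as a set of 10 genes in 143 single microglia of the developing mouse cerebellum. The set comprised 6 genes for proteins of the cell surface (Cx3cr1, Tmem119, Fcrls, Gpr56, Siglech and Selplg), 3 for secreted proteins (Olfml3, Sparc and Cst3) and Crybb1, a crystallin gene. They were chosen by name as markers, and each of the 10 had a row in the count table, among 23337 gene rows, of which 12801 had a count in any cell. The question was which of these markers cells of this gate carried, which were rarely read, and whether missing reads fell together in the same cells.

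Microglia are the resident macrophages of the brain and keep a set of surface receptors by which they sense neurons, nucleotides and matrix. In white matter of the early postnatal brain, some microglia take on an amoeboid, proliferating form with high Spp1, Gpnmb, Clec7a and lipid and lysosome genes, called proliferative-region-associated microglia (PAM), which shares much of its gene programme with the disease-associated microglia (DAM) of older brains. Lower transcripts of homeostatic markers are part of the description of both states.

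All 143 cells came from wild-type male C57BL/6N mice at postnatal day 7, whose cerebella were pooled before sorting, and all passed 1 gate (low CD45, positive for CD11b, Gpnmb and Clec7a). A pooled library name in the labels holds the word adult, although the age label gives day 7. Microglia outside the gate and other ages were not analysed here, so the values describe levels in these cells and not a change from another state. Cells of 1 pool are 1 sample: no test was run between cells, no p-value is given, and every interval covers counting error only.

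The cells lay on 2 plates, 95 on plate 1 and 48 on plate 2. Each cell held between 259613 and 1178529 gene counts, with a median of 727276, and between 1552 and 4955 genes detected, with a median of 3255. Levels are given in CPM, counts scaled to 1000000 gene counts of the cell, with spike-ins left out. The cells carried the label of their gate: Gpnmb was read in 98.6% and Clec7a in 83.2% of them, and Csf1r and Tyrobp in 100% each. Of other cell types, 7 of 7 T and NK cell markers, 9 of 10 pericyte and fibroblast markers and 4 of 8 endothelial markers had 0 counts in every cell. So had 2 of 7 neutrophil, 2 of 9 neuron, 3 of 8 astrocyte, 3 of 8 monocyte and 5 of 11 oligodendrocyte lineage markers. Of all 23337 gene rows, 12801 had a count in any cell and the others were at 0. Counts of markers at 0 in a list are therefore no finding by themselves. Among markers read in some cells were Cspg4 (17.5%), Pf4 (16.1%), Fn1 (15.4%), Cox6a2 (13.99%), and Mbp and Slc1a3 (each 13.3%). Flt1, Mag and Cbr2 (each 10.5%), Gfap (8.39%) and S100a8 (6.99%) were read in fewer. Markers of border-associated macrophages were mixed: Lyve1, Cd163, Cd209f and Clec12a were at 0, while Dab2, Stab1, Mrc1 and Ms4a7 were read in 94.4%, 87.4%, 55.9% and 21.0% of cells. Vim (68.5%, on the monocyte list), Tcf4 (79.7%, plasmacytoid dendritic cells), Cd79b (37.1%, B cells) and Cnp (35.7%, oligodendrocyte lineage) were the other listed markers read in over 20% of cells. Ly6c2, Cd79a and Ms4a1 were among the markers of these lists at 0.

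Promoter windows of 3 markers that differ in detection are printed as examples: Fcrls and Cst3 were read in every cell, and Crybb1 in 25.2% of cells. They are RefSeq windows on GRCm38.p6, from 250 bases before to 50 bases after the gene's start, read 5′ to 3′ on the gene's strand, with capitals at GAGGAA, the core letters bound by the macrophage factor PU.1, and at TATAAA, the TATA box. Fcrls is on the minus strand (chr3:87263475-87263774), Cst3 on the minus strand (chr2:148875463-148875762) and Crybb1 on the plus strand (chr5:112255570-112255869).
Fcrls: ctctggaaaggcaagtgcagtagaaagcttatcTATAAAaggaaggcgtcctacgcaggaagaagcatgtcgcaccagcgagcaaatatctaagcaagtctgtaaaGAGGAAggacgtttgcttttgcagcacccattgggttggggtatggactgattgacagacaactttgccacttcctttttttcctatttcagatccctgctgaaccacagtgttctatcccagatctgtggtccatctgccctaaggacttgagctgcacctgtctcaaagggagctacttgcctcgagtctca
Cst3: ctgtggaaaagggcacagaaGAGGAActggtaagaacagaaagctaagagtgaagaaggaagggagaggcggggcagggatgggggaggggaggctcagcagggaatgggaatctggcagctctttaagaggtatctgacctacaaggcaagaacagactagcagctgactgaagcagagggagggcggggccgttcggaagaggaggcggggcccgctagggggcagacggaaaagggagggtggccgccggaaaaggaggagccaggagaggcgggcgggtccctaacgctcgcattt
Crybb1: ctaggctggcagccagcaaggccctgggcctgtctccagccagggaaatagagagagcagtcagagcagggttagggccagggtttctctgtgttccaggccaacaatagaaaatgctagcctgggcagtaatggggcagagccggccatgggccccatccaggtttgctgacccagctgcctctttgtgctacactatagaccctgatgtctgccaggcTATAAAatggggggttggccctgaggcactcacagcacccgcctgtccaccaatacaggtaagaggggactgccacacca
GAGGAA, searched on both strands, lay at positions -144 to -139 from the start in Fcrls and at -230 to -225 in Cst3. TATAAA, also searched on both strands, lay at -30 to -25 in Crybb1 and at -217 to -212 in Fcrls. Of the 8 markers with a window in the table, 3 held GAGGAA (Siglech besides these) and 2 held TATAAA, against 28.3% and 13.6% of the 32851 windows of the same length. The widely read Cx3cr1, Olfml3 and Sparc and the rarely read Gpr56 held neither. A match of letters is a description and was not tied to any binding here.

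Of the 10 markers, 5 were read in at least 90% of cells: Fcrls and Cst3 in 100%, Cx3cr1 in 99.3%, Olfml3 in 96.5% and Sparc in 95.8%. Siglech (69.2%) and Selplg (53.8%) were read in most cells, and Tmem119 (25.9%), Crybb1 (25.2%) and Gpr56 (6.29%) in a minority. Among all genes with a count, 4.26% reached that 90% and 82.8% were read in under 50%. Together the markers took 1.24% of all gene counts, and on each plate the same split into 5 above 90% and 3 under 50% was seen.

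**Figure D1:**
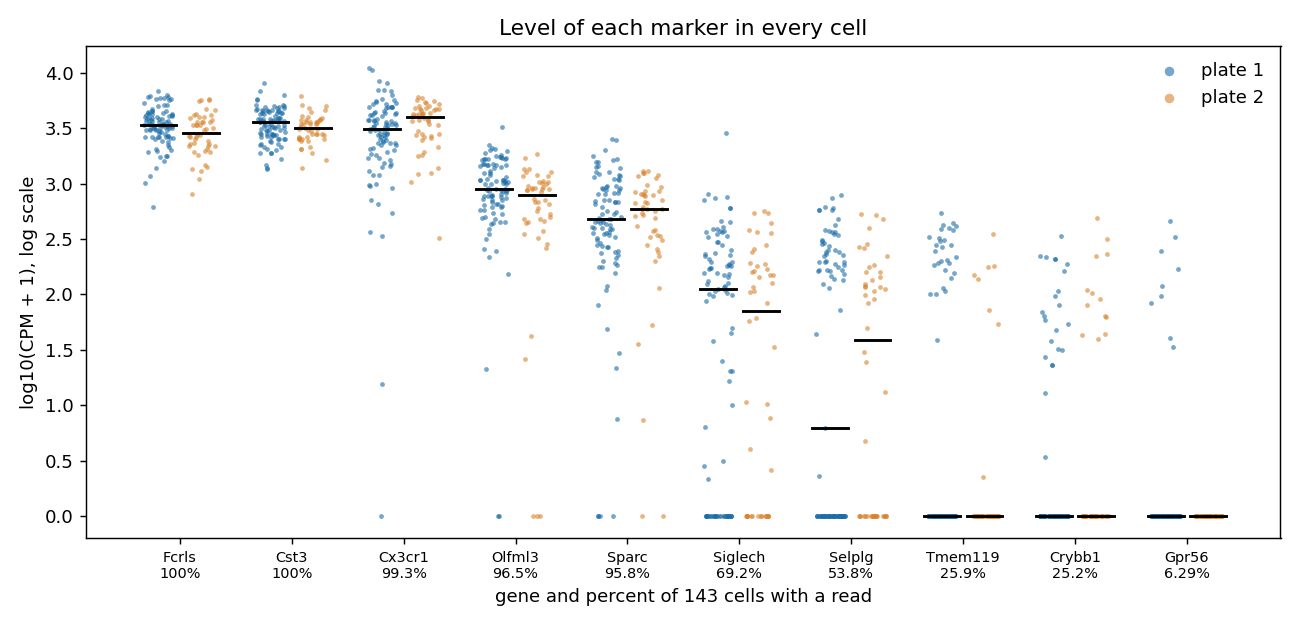
Level of each marker as log10(CPM + 1) in each of the 143 cells, with plate 1 left and plate 2 right for each gene and black bars at the plate medians. Fcrls, Cst3 and Cx3cr1 form bands with plate medians between 2904 and 3991 CPM, while Siglech, Selplg, Tmem119, Crybb1 and Gpr56 have many cells at 0, and Siglech also has cells spread at low levels.

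Cx3cr1 (ENSMUSG00000052336.7, chr9:119901616-120069879, minus strand, GENCODE M21 on GRCm38) encodes the receptor for fractalkine, the neuronal chemokine Cx3cl1. It had a lowest level of 0, a median of 3414 and a highest level of 11020 CPM over cells, with quartiles at 2188 and 4644 CPM. Most cells lay well above 0, and all but 1 of the 143 cells had a read (95% interval for the share 96.17 to 99.98%). Medians were 3144 CPM on plate 1 and 3991 CPM on plate 2, with wide overlap. The annotated span covers several other genes, among them Wdr48 and Gorasp1, read in 27.97% and 14.7% of cells, and since the sources used here do not say whether counting used strand, reads of overlapping genes cannot be told apart.

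Fcrls (ENSMUSG00000015852.13, chr3:87250758-87263738, minus strand), an Fc receptor-like scavenger molecule that among mouse brain cells marks microglia, ran from 619.7 to 6926 CPM with a median of 3312. Its spread was small for its level: the coefficient of variation over cells was 0.38, and the excess, the log2 of its squared value over the running median of genes of like mean, was -1.005. That put it at the 8.69th percentile of 7789 genes read in at least 10% of cells. Every cell had reads of it.

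Siglech (ENSMUSG00000051504.18, chr7:55768178-55778925, plus strand) encodes a sialic acid-binding lectin of microglia and plasmacytoid dendritic cells that signals through the adaptor Tyrobp. It ran from 0 to 2885 CPM, with a median of 107.06 and an upper quartile of 222.4 CPM. Reads were missing in 44 cells, and 7 more had only 1 to 4 counts. Of the 9 markers ranked, Siglech was the most variable for its level, with an excess of 1.38 (99.3rd percentile). A single cell on plate 1 held the 2885 CPM, and the next highest cell held 814.9 CPM, so the excess leans on that cell. Its coefficient of variation, 1.74, was below those of Tmem119 (2.01) and Crybb1 (2.53). The 5 highest cells held 24.4% of the CPM of Siglech over all cells, against 25.9% for Tmem119 and 38.1% for Crybb1. The plates overlapped, at 70.5% of cells on plate 1 and 66.7% on plate 2. Of the 10 plasmacytoid dendritic markers, Ly6d, Klk1 and Spib were at 0 in all cells. Tcf4 was read in 79.7%, Cox6a2 in 13.99%, Pacsin1 in 2.80%, and Ccr9, Runx2, Cd300c and Atp1b1 in 0.699% each.

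Selplg (ENSMUSG00000048163.13, chr5:113818536-113832644, minus strand) encodes P-selectin glycoprotein ligand 1, which binds selectins on vessel walls. Its level ran from 0 to 786.9 CPM with a median of 29.5, and 66 cells had no read. Cells that had a read had a median of 194 CPM, and only 3 of them had 1 to 4 counts.

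Tmem119 (ENSMUSG00000054675.5, chr5:113793729-113800516, minus strand), a transmembrane protein widely used as a microglia marker, was read in 37 cells (95% interval 18.9 to 33.9%). Its level ran from 0 to 540.0 CPM with a median of 0. Where it was read it was well covered: the 37 cells held a median of 158 counts, or 201.03 CPM, and only 1 of them had 1 to 4 counts. Thinning each cell to 200000 gene counts left the share at 25.2%. Apart from that cell, cells had either 5 or more Tmem119 reads or none.

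Gpr56, now called Adgrg1 (ENSMUSG00000031785.16, chr8:94974751-95014217, plus strand), is an adhesion receptor whose known ligands are collagen III and transglutaminase 2. It was read in 9 cells (95% interval 2.92 to 11.6%), with a median of 89 counts in those cells and a highest level of 463 CPM. The 5 highest cells held 84.04% of its CPM. All 9 cells were on plate 1 (9.47% of 95), against 0 of 48 cells on plate 2. That allows a share on plate 2 of up to 6.25%, taken as 3 of 48 cells, and up to 7.40% by the exact interval.

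Among the secreted markers, Cst3 (ENSMUSG00000027447.6, chr2:148871722-148875692, minus strand), cystatin C, an inhibitor of cysteine cathepsins, ran from 1352 to 8134 CPM with a median of 3380. It was the least variable of the 9 ranked markers, with a coefficient of variation of 0.33 and an excess of -1.43 (4.62nd percentile). Olfml3 (ENSMUSG00000027848.12, chr3:103722222-103738001, minus strand), a secreted olfactomedin-domain protein, ran from 0 to 3268 CPM with a median of 885, and was missing in 5 cells. Sparc (ENSMUSG00000018593.13, chr11:55394500-55423183, minus strand), a collagen-binding matricellular protein, ran from 0 to 2515 CPM with a median of 518, and was missing in 6 cells. Sparc varied more than most genes of its level, with an excess of 0.72 (94.6th percentile), against 0.23 (69.8th percentile) for Olfml3.

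Crybb1 (ENSMUSG00000029343.17, chr5:112255815-112269585, plus strand) encodes a beta crystallin, a lens protein whose transcript in the mouse brain is a marker of young microglia. It was read in 36 cells (95% interval 18.3 to 33.1%) and ran from 0 to 489 CPM. Cells with a read held a median of 50 counts and 73.2 CPM, and the share was 25.2% after thinning too. The plates overlapped, at 24.2% of cells on plate 1 and 27.1% on plate 2.

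Levels of different genes can be set side by side only per length. On the scale of pooled CPM per kilobase of annotated exon, Cst3 was highest at 2729, followed by Fcrls at 1471 and Cx3cr1 at 779.9. Sparc (167) and Olfml3 (153) formed a lower group, and Siglech (50.5), Selplg (31.3), Crybb1 (27.97) and Tmem119 (26.3) the next, with Gpr56 last at 1.82. These values rest on the union of all exons annotated in GENCODE M21, which was 4505 bases for Cx3cr1, 6161 for Olfml3 and 985 for Crybb1. The annotation used for counting is not known here, so a union that holds exons not used in these cells would put a level too low, and the order of Cx3cr1, Olfml3 and their neighbours is uncertain. On this scale Tmem119 and Crybb1 differed little, and Siglech was above Tmem119 while being read in far more cells.

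A low level alone makes a transcript hard to read in a single cell, so each marker was set against the 200 genes of nearest pooled CPM. Tmem119 was read in 25.9% of cells, against a median of 41.3% for genes of its level (quartiles 35.7 and 49.7%), and only 3 of the 200 had a lower share. Selplg was read in 53.8%, against 65.03% (quartiles 59.4 and 76.2%), and 21 of 200 had a lower share. Gpr56 was 3.50 percentage points under its median, with 18 of 200 genes lower, and Crybb1 was 2.80 points above it. The other 6 markers lay within 2.80 points of theirs. The 3 spike-in transcripts nearest in level to Tmem119 were read in 30.8 to 47.6% of wells, and the 3 nearest to Selplg in 71.3 to 79.7%. Reads of Tmem119 and Selplg were therefore held by fewer cells, with more reads in each, than was usual at their pooled level. For Crybb1 and Gpr56, the median of genes of like level lay within the interval of the marker's share. For Gpr56 that median was 9.79%, in an interval of 2.92 to 11.6%. This sets each gene against other genes of the same cells and is a description, with no test.

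**Figure D2:**
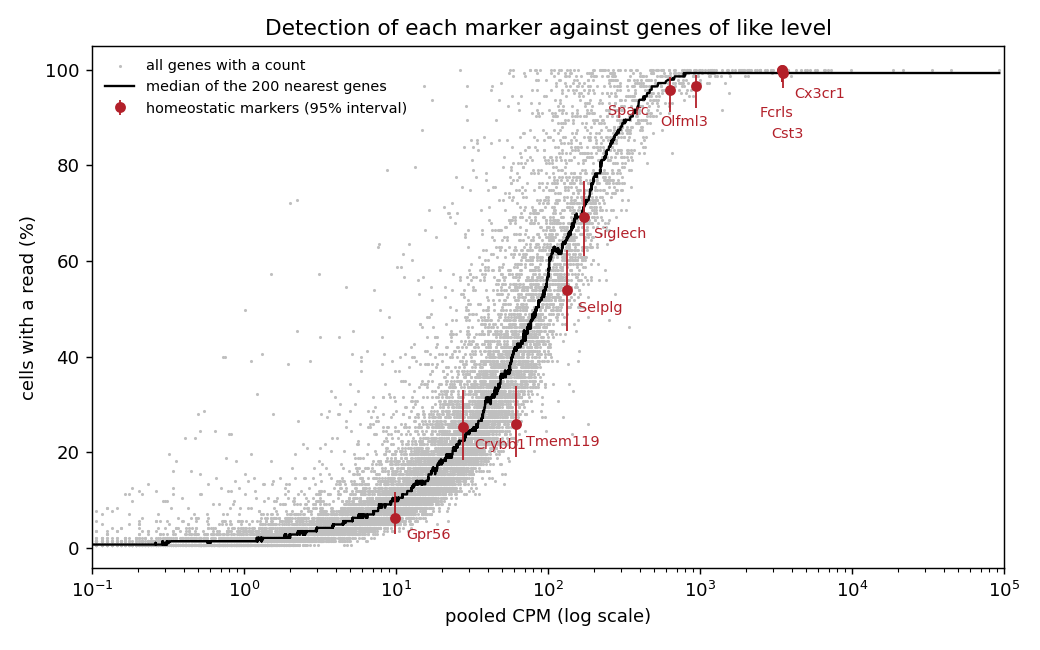
Percent of the 143 cells with a read against pooled CPM on a log scale, for all genes with a count (grey), their running median over the 200 nearest genes (line) and the 10 markers (red, with exact 95% intervals). Tmem119 at 25.9% and Selplg at 53.8% lie under the line, and Crybb1 and Siglech lie on it within their intervals.

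Plate and level were also set against each other. Pooled CPM of Tmem119 was 79.1 on plate 1 and 22.3 on plate 2, a ratio of 3.54, with reads in 30.5% of cells on plate 1 and 16.7% on plate 2, whose intervals overlap. Counting Gpr56 (14.5 CPM on plate 1 and 0 on plate 2), 2 of 10 markers were over 2-fold apart between plates, against 17.3% of 9274 genes read in at least 5% of cells. The ratios of the other 8 markers lay between 0.69 (Crybb1) and 1.45 (Siglech). The plates are technical batches of 1 pool, and the cells cannot be assigned to animals.

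Loss of markers was next examined cell by cell. A cell held reads of between 3 and 9 of the 10 markers, with a median of 7, and 92.3% of cells held all 5 of the widely read ones. The SD over cells of the number of markers read was 1.06, against 0.99 if each gene were detected independently at its share on each plate, a ratio of 1.08 (1.06 on plate 1 and 1.11 on plate 2). No read of Tmem119, Crybb1 or Gpr56 was found in 77 cells (53.8%, interval 45.3 to 62.2%), against 74.4 cells if independent. None of these 3, Siglech or Selplg was read in 12 cells (8.39%, interval 4.41 to 14.2%), against 10.51 if independent. A single cell held all 3 of the rare markers, and 12 held both Tmem119 and Crybb1. Neither Tmem119 nor Crybb1 was read in 82 cells, against 79.2 if independent. Counts of missing markers thus lay close to what separate losses of each gene give. The exception was 1 cell with only 3 markers, where 0.021 cells would be counted if independent.

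**Figure D3:**
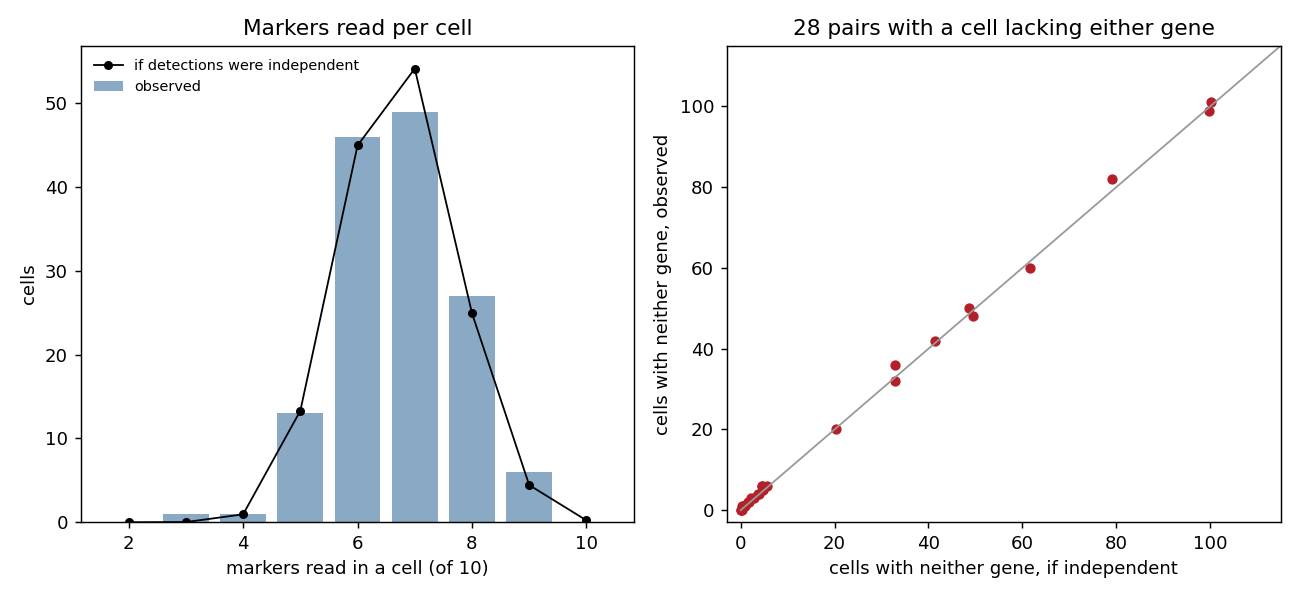
Left, the number of cells with reads of 2 to 10 markers (bars) and the number if detections were independent within each plate (points); right, for 28 pairs of markers, the cells with neither gene as observed against the number if independent, with the line of equality. The bars follow the points, with 49 cells at 7 markers against 54.1, and the pairs follow the line.

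Among the 10 pairs of the 5 partly read markers, the number of cells with neither gene differed from the independent number by between -1.64 and 3.21 cells. The largest difference was for Tmem119 and Siglech, with neither in 36 cells against 32.8, and a Spearman rho of log2(CPM + 1) of 0.21 over 143 cells. Tmem119 and Selplg lie 18020 bases apart on chromosome 5 and were both read in 21 cells, against 19.9. Crybb1 lies 3297 bases from Cryba4, another crystallin gene, which was read in 30.8% of cells, and both were read in 9 cells, against 11.08. Both neighbouring pairs were read together in about as many cells as separate detection gives.

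The cells that lacked a widely read marker were few. One cell, on plate 1, had no Cx3cr1 read, yet it held 4298 CPM of Fcrls, 1197 CPM of Csf1r and 8262 CPM of Gpnmb. Of the 5 cells without Olfml3 and the 6 without Sparc, 1 cell on plate 2 lacked both. That cell held reads of only 3 markers: Fcrls at 809 CPM and Cst3 at 1375 CPM, each the lowest of plate 2, and Cx3cr1 at 1033 CPM. It had 606765 gene counts and 2885 genes detected. The 11 cells in all that lacked at least 1 of Cx3cr1, Olfml3 and Sparc each had reads of Csf1r, C1qa, Gpnmb, Spp1 and Apoe.

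Levels of the markers were only loosely linked across cells. Spearman rho for the 45 pairs ran from -0.06 to 0.39, with a median of 0.10. The 3 pairs that passed 0.3 were Sparc with Cst3 (0.39 over all cells, 0.34 on plate 1 and 0.56 on plate 2), Fcrls with Olfml3 (0.31) and Fcrls with Sparc (0.31). The number of markers read had a rho of 0.22 with the number of genes detected over all cells, 0.27 in cycling cells and 0.04 in other cells. The points share a library, and these values are descriptions.

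Of 30 other homeostatic genes, 6 reached 90% of cells, 26 reached 50% and 4 stayed below, a median of 74.1% of cells, against 16.1% for all genes with a count. Among the most widely read were Csf1r, the receptor for the growth factors that keep microglia alive, and Serpine2, a secreted protease inhibitor (each 100%), and Rnase4, a secreted ribonuclease (97.9%). Among the least read were Rtn1, a reticulon (3.50%), Slc2a5, a fructose transporter (6.29%), and Sall3, a zinc-finger factor (26.6%). P2ry12, the ADP receptor that steers microglial processes, was read in 88.1%. Tmem119 and Crybb1 thus stood with the least read of the other homeostatic genes, and the 5 widely read markers with the most read.

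Of the 10 markers, Cx3cr1 had the highest correlation with these other homeostatic genes in CPM. Over 143 cells its rho with the mean of the 30 was 0.53 (0.58 on plate 1 and 0.33 on plate 2), and 0.64 after scaling to the spike-ins of the well. That scaling also raised the rho of Cx3cr1 with 25 lysosome genes, from -0.09 to 0.31, and with 24 S-phase genes, from -0.02 to 0.27. Of the 27 homeostatic genes read in over 20% of cells, 27 had a rho above 0 with Cx3cr1, 21 of them on both plates. The share of all genes with a rho above 0 is not given here, so these counts are no finding by themselves. The 3 genes with levels most like Cx3cr1, among 5569 read in at least 20% of cells, were P2ry12 (0.53), Csf1r (0.49) and Il6ra, the interleukin 6 receptor (0.41), and spike-in scaling left these at 0.50, 0.50 and 0.34. For the other 9 markers, rho with the mean of the 30 lay between -0.02 and 0.21.

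**Figure D4:**
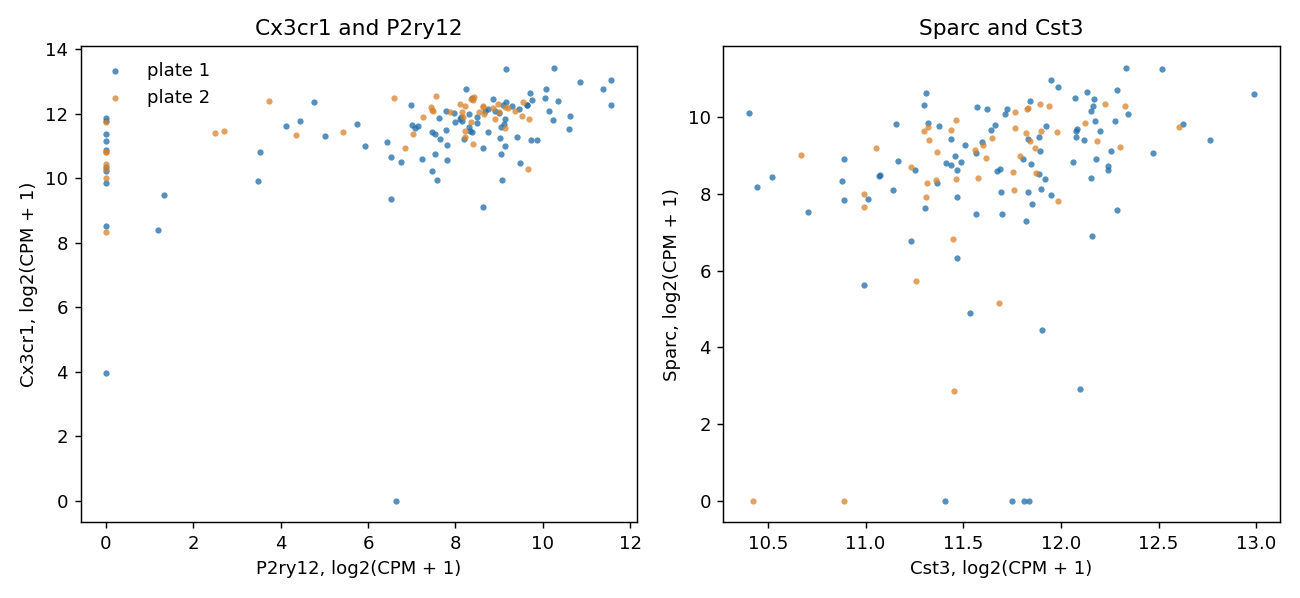
Levels in each of the 143 cells as log2(CPM + 1), coloured by plate: Cx3cr1 against P2ry12 (left, rho 0.53) and Sparc against Cst3 (right, rho 0.39). Cells with low or no P2ry12 reads tend to the lower range of Cx3cr1, and the cells at 0 for Sparc include the lowest cell of plate 2 for Cst3.

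Against the PAM and DAM genes the outcome depended on the scale. In CPM, Cx3cr1 had a rho of -0.45 with the mean over the list of 26 such genes (plate 1 alone gave -0.52 and plate 2 alone -0.43), and -0.47 given the genes detected and the plate. Of the 24 genes of that list read in over 20% of cells, 21 had a rho under 0, 17 of them on both plates. The lowest were Lgals3, a galectin (-0.49), and Fabp5, a fatty acid-binding protein (-0.45). The share of all genes with a rho under 0 is not given here, so these counts are no finding by themselves. Scaled to the spike-ins, the value for the list was -0.02, that for Lgals3 -0.18 and that for Fabp5 -0.07. The same change of scale gave Fcrls 0.28, against -0.17 in CPM, and Cst3 0.32, against -0.17 in CPM. The list took 11.5% of all gene counts, and its summed level ran from 46635 to 172920 CPM over cells; the part of this in the values in CPM was not tested. The other 9 markers had a rho between -0.18 and 0.09 with the list in CPM.

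For the other markers, the genes most alike in level had a rho of at most 0.40. Tmem119 was closest to Smarca5, a chromatin remodeller (0.40), Hat1, a histone acetyltransferase (0.39), and Hells, a helicase of dividing cells (0.36). Fcrls was closest to Gdi2, Tapbp and Olfml3 (0.31 to 0.33), and Olfml3 to Fcrls, Serinc3 and Hmgn2 (0.30 to 0.31). Sparc was closest to Cst3, Serpine2 and the cathepsin gene Ctsl (0.32 to 0.39), and Cst3 to Sparc, Itm2b and the lysosomal protease gene Ctsa (0.32 to 0.39). Among the 3 closest to Crybb1 was Cand1 (0.33). Siglech was closest to Rin3, Cisd2 and Rpl27a (0.31 to 0.36), and Selplg to Pphln1, Ly86 and Ccdc28b (0.27 to 0.29). In counts with many cells at 0, values of this size are no finding. Sparc also had a rho of -0.36 with the mean of the 12 border-associated macrophage genes (-0.41 on plate 1 and -0.27 on plate 2, and -0.27 with spike-in scaling). Of those 12 genes, 4 were at 0 and their summed level ran from 0 to 3836 CPM; what part of it bears on Sparc was not tested.

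Part of the cells carried transcripts of the cell cycle, so the markers were set side by side in cycling and other cells. A cell was called cycling when at least 6 of 24 S-phase genes or 8 of 31 G2/M genes reached 10 CPM, which held for 62 cells, 45 on plate 1 and 17 on plate 2, against 81 other cells. Tmem119 was read in 38.7% of cycling cells (interval 26.6 to 51.9%) and 16.05% of other cells (interval 8.83 to 25.9%). These intervals cover counting error over cells of 1 pool, so whether intervals overlap is no test between the classes. The order was the same on both plates, with 42.2% of cycling and 20.0% of other cells on plate 1 and 29.4% of cycling and 9.68% of other cells on plate 2, and after thinning (38.7% of cycling and 14.8% of other cells). Pooled CPM of Tmem119 was 84.6 in cycling and 41.9 in other cells.

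Siglech was read in 80.6% of cycling cells (interval 68.6 to 89.6%) and 60.5% of other cells (interval 49.01 to 71.2%), with overlapping intervals, and its median level was 110.8 CPM in cycling and 107.06 CPM in other cells. After thinning the shares were 75.8% in cycling and 59.3% in other cells. Of the 4 markers read in 10 to 90% of cells, Tmem119 and Siglech had a share over 15 points higher in cycling cells, against 24.8% of 7244 such genes, of which the median difference was 7.95 points. Cycling cells had more genes detected, with a median of 3600.5 against 2907 in other cells, and the part of this in the difference was not tested. Class limits were close for many cells: 44 lay within 2 genes of a limit.

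**Figure D5:**
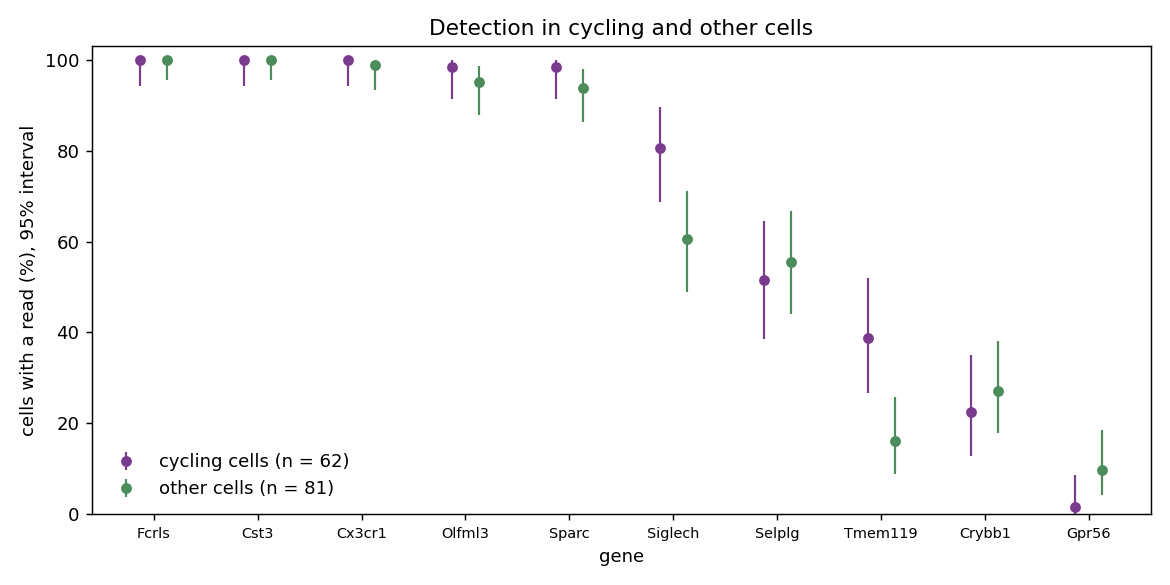
Percent of cells with a read of each marker in 62 cycling cells (left point of each pair) and 81 other cells (right point), with exact 95% intervals. Tmem119 (38.7% of cycling and 16.05% of other cells) and Siglech (80.6% of cycling and 60.5% of other cells) lie furthest apart, and the widely read markers coincide.

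Among the widely read markers the shares were also slightly higher in cycling cells: Sparc was read in 98.4% of cycling and 93.8% of other cells, Olfml3 in 98.4% of cycling and 95.1% of other cells, and Cx3cr1 in 100% of cycling and 98.8% of other cells, with overlapping intervals. The other 3 partly read markers had lower shares in cycling cells. Crybb1 was read in 22.6% of cycling and 27.2% of other cells, Selplg in 51.6% of cycling and 55.6% of other cells, and Gpr56 in 1 of 62 cycling and 8 of 81 other cells, with overlapping intervals for each. Median levels of Cx3cr1 were 3254 CPM in cycling and 3458 CPM in other cells, and those of Fcrls 3343 CPM in cycling and 3311 CPM in other cells. Cst3 had a median of 3020 CPM in cycling and 3625 CPM in other cells, with overlapping quartile ranges (2549 to 3816 CPM in cycling and 2833 to 4445 CPM in other cells).

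The ligands, adaptors and targets of the markers were listed too, 40 genes in all, of which 24 were read in over 20% of cells and 10 were at 0. Of all 23337 gene rows, 5570 were read in over 20% of cells and 12801 had a count in any cell. For the receptors, these external ligands were at 0: Cx3cl1, the ligand of Cx3cr1, Selp and Sele, selectins that bind Selplg, and Col3a1 and Tgm2, the ligands of Gpr56. An exact interval for 0 of 143 cells ends at 2.55%. The intracellular side was widely read: the G protein gene Gnai2 (99.3%), which serves chemokine receptors, Tyrobp, the adaptor of Siglech (100%, median 2441 CPM), with Hcst, a related adaptor, in 21.0%, and the phosphatase genes Ptpn6 (93.01%) and Inpp5d (91.6%). Of the shedding proteases that cut Cx3cl1 from membranes, Adam10 was read in 96.5% and Adam17 in 66.4%, and a second inhibitory G protein gene, Gnai3, in 53.1%.

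Gpr56 itself was rarely read, while the listed genes that act with it named here were read in more cells: its tetraspanin partner Cd81 and the related Cd9 (each 100%), Rhoa (97.9%), Gna13 (50.3%) and Gna12 (21.7%). For Selplg, the enzyme that adds the sulfate needed for selectin binding, Tpst2, was read in 55.9%, and the glycan-branching Gcnt1 in 32.2%, while Fut7 and Fut4, which add the fucose, were read in 1.40% and 2.80%. For Sparc, the integrin gene Itgb1 (93.01%) and Stab1, the scavenger receptor that takes Sparc up (87.4%), were widely read, and its collagen partners Col1a1 and Col4a1 were at 0. Bmp4, a secreted growth factor listed beside Olfml3, was at 0.

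Cst3 stood beside genes of lysosomal cysteine proteases, the class it blocks. The cathepsins Ctsb, Ctsl, Ctss and Ctsz and the legumain gene Lgmn were each read in 100% of cells, at medians of 21684, 4957, 2300, 6454 and 6230 CPM, Ctsc in 97.2% and Ctsh in 72.7%, whereas Ctsk, the cathepsin of osteoclasts, was at 0. Per cell, the level of Cst3 had a rho of 0.01 with the mean of 25 lysosome genes in CPM and of 0.43 after spike-in scaling, so this link too depended on the scale.

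Of 51 measured relatives of the markers, 8 were read in over 20% of cells and 24 were at 0. Of all 23337 gene rows, 5570 were read in over 20% of cells and 12801 had a count in any cell. The median over the relatives was 0.699% of cells. Cstb, an intracellular cystatin, was read in 100% (median 581 CPM), and Cst7, the cystatin of disease-associated microglia, in 22.4%. Emr1, the adhesion receptor known as F4/80, was read in 95.8% and its relative Cd97 in 21.7%, against 6.29% for Gpr56. Among the sialic acid-binding lectins, Cd33 was read in 76.2% and Cd22 in 25.2%, against 69.2% for Siglech, and Siglecg was at 0. Cd34, a sialomucin like the product of Selplg, was read in 36.4%. Fcrl1, the relative of Fcrls read most, was read in 10.49% of cells, and Fcrl6 and Fcrla were at 0. Cryba4 (30.8%) was the single listed crystallin besides Crybb1 with a read in over 1 cell, while the listed relatives of Sparc were read in 3 cells (Sparcl1) or 0. For Olfml3, the listed relative read most was Olfml2b (8.39%).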

How the data were processed

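The authors deposited 1 table of read counts per gene and cell; the counts are whole numbers without molecular identifiers, and 0 columns were left unmapped. Libraries were made with Smart-seq2, per the labels' protocols. HTSeq, Picard, STAR 2.5.3a, Trim Galore 0.4.3 and the build mm10 are named, in no order, in the submitters' processing notes, and the annotation and use of strand are not given in the sources used here. The 92 spike-in rows were left out of totals and Rn45s, a ribosomal RNA precursor, was kept in.

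From the counts, CPM and pooled CPM (summed counts over summed gene counts, scaled to 1000000) were computed with numpy 2.4.6, pandas 2.3.3 and scipy 1.17.1. A read means at least 1 count. Shares have exact Clopper-Pearson 95% intervals. Genes of like level are the 200 nearest in pooled CPM, in a window of 201. Independent detection multiplies each marker's share within its plate. Correlations are Spearman's rho of log2(CPM + 1), and a list's level is the mean of that over its genes. Exon lengths and positions come from GENCODE M21, promoter windows from RefSeq. Depth was equalised by thinning to 200000 gene counts.

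The markers and gene lists were chosen with earlier results of these data known. The text names all 10 markers, the 4 most and 4 least read of the other homeostatic genes, partners and relatives read in over 20% of cells or at 0, markers of other cell types read in over 20%, and for each marker read in at least 10% of cells the 3 genes most alike among those read in at least 20%; further genes named were chosen after their values were seen. Some genes covered by this rule are not reported here but count in their lists. Only the detection against genes of like level and the correlation of pairs of genes were tried on simulated counts, and the other steps were not.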

Additional observations from a re-analysis of the deposited data

How the results depend on the processing

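The numbers of markers read in at least 90% (5) and under 50% (3) of cells, and the median of 7 markers per cell, were the same under 7 alternatives: 5 or more counts, a CPM of 10 or more, thinning, each plate alone, cells outside the cycling class, and leaving out the 20% of cells with the fewest genes detected. The ratio of SDs ran from 1.06 to 1.11 over them. The share of gene counts held by the markers, 1.24%, was 1.37% with Rn45s left out, 1.225% as a median over cells, 1.27% on plate 1, 1.17% on plate 2, 1.26% outside the cycling class and 1.19% without the 20% of cells with the fewest genes, and the cause was not tested. The gaps of Tmem119 and Selplg to genes of like level were -15.7 and -10.5 points in a window of fewer genes. Scalings of the correlations were added after seeing the data. Spike-in scaling moved Cx3cr1 with the PAM and DAM genes, Lgals3 and Fabp5 towards 0, turned the sign of Fcrls and Cst3 with the PAM and DAM genes (0.28 and 0.32, against -0.17 each in CPM), and also that of Tmem119, Siglech, Olfml3 and Sparc (0.02 to 0.12, against -0.18 to -0.04 in CPM), and raised Cst3 with the lysosome genes to 0.43, against 0.01 in CPM; Cx3cr1 with P2ry12 (0.50) and Sparc with Cst3 (0.43) changed little. No paired analysis was possible because all cells belong to 1 group and no test was run. With 1 pool of animals, spread between animals cannot be seen. Statements on Gpr56 are limited by the small number of cells with a read, 9, all on plate 1. Its share was 6.29% after thinning too.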
